A study of Mus musculus with 6 samples.

Results

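Muscle contracts through thin filaments of actin, tropomyosin and troponin that slide along thick filaments of myosin. Striated muscle packs these filaments into sarcomeres, whereas smooth muscle holds them in looser arrays and carries its own actin and actin-bundling proteins. In the early embryo, mesoderm that expresses the receptor FLK1 can give rise to blood, endothelium, heart muscle and smooth muscle, and several contractile genes are switched on at a low level before any muscle has formed.

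The genes described here are 10 sarcomere and smooth muscle genes, chosen by symbol as muscle actins, troponins, myosin light chains, tropomyosins and the smooth muscle gene Tagln. Of these, 9 have a row among the 14005 genes of the deposited table. Tnnt2, which encodes cardiac troponin T, has no row and is absent from every result except the promoter search. The libraries come from FLK1+ cells isolated on magnetic columns from embryoid bodies at day 3.5 of differentiation in serum. The WT group is the mouse embryonic stem (ES) cell line J1 and the Scl-/- group is an ES cell line in which the gene for the transcription factor SCL (Tal1) is disrupted. The strain labels name C57Bl/6 crossed with Sv129 in WT replicates 1 and 2 and Scl-/- replicate 1, and the Sv number then goes up by 1 with each library in the order Scl-/- replicate 2, WT replicate 3 and Scl-/- replicate 3, so that it does not follow genotype; the strain label is in doubt and was not used. Each group has 3 libraries, replicates 1 to 3, from independent differentiations, and the cells of a group come from a single ES line, so that line and genotype cannot be told apart. Values are CPM, read counts scaled to a common library size. WT replicates 1 to 3 held an estimated 39713877, 38623641 and 40769209 reads on the listed genes and Scl-/- replicates 47621120, 42108168 and 43662177, worked out from the smallest step between values of a library. A floor of 3 reads is worth 0.0615 to 0.0784 CPM, and it covers counting error only.

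The targeted gene Tal1 had 303, 182 and 306 CPM in WT and 9.35, 5.68 and 5.87 CPM in Scl-/- replicates 1 to 3. The groups were far apart, in the direction of the labels. Kdr, which encodes FLK1, had 868, 832 and 867 CPM in WT and 724, 777 and 810 CPM in Scl-/- libraries, so the marker used for the isolation was abundant in every library. Libraries that share a replicate number varied together around the means of their groups, and each result is therefore given from a fit with condition only and, where it changes the call, from a fit with the replicate number as a block. A gene counts as called when its adjusted p is under 0.05 and its log2 fold change is beyond 0.48 in either direction. Fold changes set Scl-/- cells over WT cells on the log2(CPM + 0.5) scale, which understates the change of low genes.

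All 9 muscle genes with a row passed the filter on low values. With condition only, 0 of the 9 were called by limma, where 2.36% of the 13991 tested genes were called in either direction and 0.793% as higher in Scl-/- cells, and 4 of the 9 had an unadjusted p under 0.05, as did 17.7% of all tested genes. With the replicate block 4 of the 9 were called, namely Myl7, Actc1, Acta1 and Tagln, all higher in Scl-/- cells, where 12.6% of all tested genes were called and 6.04% as higher. The groups did not overlap for 4 of the 9 (Myl7, Tagln, Tpm2 and Myl4), where 21.6% of all tested genes had groups that did not overlap and 11.0% did so with the higher values in Scl-/- cells. In 6 of the 9 the Scl-/- library was higher within all 3 pairs, as it was for 29.8% of all tested genes. The median log2 fold change of the 9 was 0.34, or 0.50 without the row named Tnnc1, which is described below, against 0.009 over all genes tested. Acta1, Actc1 and Myl7 are among the genes that the study itself picked out from these same libraries, so their direction is not independent evidence. In bulk samples such as these, fewer cells of a type and less RNA per cell cannot be told apart.

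**Figure D1:**
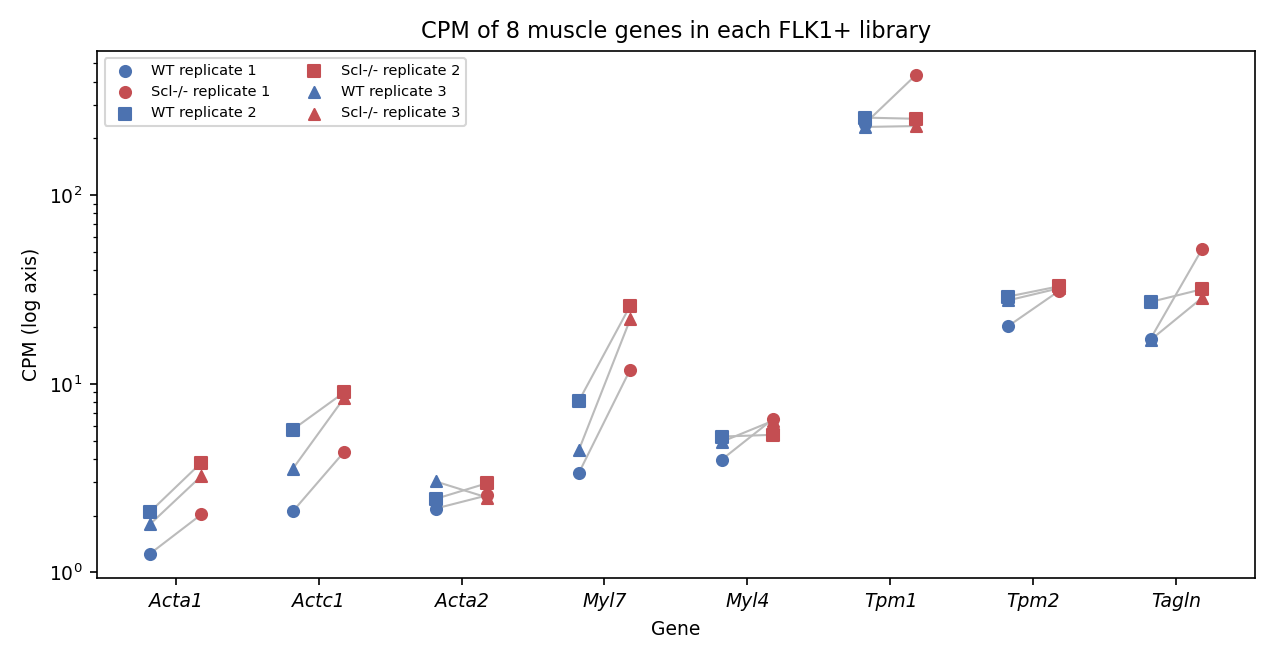
CPM of 8 muscle genes in each library on a log axis, with WT in blue, Scl-/- in red, a symbol shape for each replicate number and grey lines joining libraries of the same number. Myl7 is apart between the groups, Acta2 is mixed, and Scl-/- replicate 1 stands above the other Scl-/- libraries for Tpm1 and Tagln.

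The sarcomeric actins Acta1 (skeletal) and Actc1 (cardiac) form the thin filament backbone of striated muscle, and Myl7 encodes the atrial regulatory light chain of myosin. The promoters of these genes are shown because they hold the CArG box, the binding motif of serum response factor, and that of the smooth muscle actin Acta2 is shown beside them as the third muscle actin. They were picked for the motif, so they give no comparison of genes with and without it. Each is the 250 bases before the start that RefSeq (GRCm38.p6) gives, found by exact match at a single place in mm9, written 5′ to 3′ on the strand of the gene, with full matches to the CArG box in capitals. The RefSeq start of Actc1 lies 673 bases inside the GENCODE span of the gene given below, while those of Acta1 and Acta2 lie 24 and 37 bases outside it and that of Myl7 agrees.
Acta1, chr8:126418676-126418925, minus strand: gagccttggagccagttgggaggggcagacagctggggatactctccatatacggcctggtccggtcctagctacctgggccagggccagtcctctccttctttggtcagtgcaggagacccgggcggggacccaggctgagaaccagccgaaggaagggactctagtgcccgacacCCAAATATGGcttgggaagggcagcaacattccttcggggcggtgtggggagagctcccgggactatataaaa
Actc1, chr2:113878612-113878861, minus strand: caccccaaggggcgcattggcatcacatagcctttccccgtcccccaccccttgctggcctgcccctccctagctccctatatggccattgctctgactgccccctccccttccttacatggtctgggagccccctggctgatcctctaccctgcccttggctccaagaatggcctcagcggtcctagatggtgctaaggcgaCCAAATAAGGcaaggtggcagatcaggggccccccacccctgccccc
Myl7, chr11:5798786-5799035, minus strand: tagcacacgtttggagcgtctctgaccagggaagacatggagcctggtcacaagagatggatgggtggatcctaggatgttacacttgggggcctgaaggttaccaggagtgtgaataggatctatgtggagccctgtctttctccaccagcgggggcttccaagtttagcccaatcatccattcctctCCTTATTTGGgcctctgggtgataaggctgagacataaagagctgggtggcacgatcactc
Acta2, chr19:34329864-34330113, minus strand: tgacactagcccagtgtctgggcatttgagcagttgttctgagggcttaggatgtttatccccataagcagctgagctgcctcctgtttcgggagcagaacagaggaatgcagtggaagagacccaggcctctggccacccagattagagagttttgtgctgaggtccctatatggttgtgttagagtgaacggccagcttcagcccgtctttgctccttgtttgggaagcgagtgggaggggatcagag
The CArG box, searched on both strands as CC, then 6 bases that are each A or T, then GG, began 73 bases before the RefSeq start in Acta1, 47 bases before it in Actc1 and 61 bases before it in Myl7. Windows were found for 9 of the 10 muscle genes, Tnnt2 among them and Tagln not. Of these 9, the 3 named held a full match, and 1.47% of 32851 promoters did. Myl4 and Tpm2, which like them were higher in Scl-/- cells within every pair, held none. With 1 letter off allowed, a search chosen after the windows were seen, 6 of the 9 held a match, as did 18.6% of all promoters, and the window of Acta2 held 2, which began 84 and 34 bases before its start. TATAAA was found in 12.4% of all promoters and, among the 4 shown, in that of Acta1. CANNTG was in 66.2% of all promoters and GATAA in 22.6%. A match describes the letters of the window and says nothing about binding.

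Myl7 (ENSMUSG00000020469) lies on the minus strand of chromosome 11 from 5796640 to 5798785 of mm9. It had 3.36, 8.10 and 4.44 CPM in WT and 11.9, 26.0 and 22.0 CPM in Scl-/- replicates 1 to 3. Every Scl-/- library was above every WT library, and replicate 1 was lowest in both groups. The log2 fold change was 1.83 (SE 0.37, with a Benjamini-Hochberg adjusted p of 0.0546 from limma without the block and 1.5e-04 with it), and the differences within pairs 1, 2 and 3 were 1.68, 1.62 and 2.19. Leaving out WT replicate 2 or Scl-/- replicate 1 brought the fit with condition only past the threshold (limma, Benjamini-Hochberg adjusted p = 0.023 and 0.037), within a range of 6.1e-06 to 0.232 over all alternatives. The chromosome that carries Myl7 was shifted upwards: over the 1211 tested genes of chromosome 11 the median log2 fold change was 0.31, and over the 20 tested genes nearest to Myl7 it was 0.32. Its flanking genes Pold2 and Ykt6 had log2 fold changes of 0.40 and 0.35. With each chromosome's median deviation removed and the block kept, its log2 fold change was 1.53 (adjusted p by limma and Benjamini-Hochberg 4.3e-04).

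Actc1 (ENSMUSG00000068614) lies on the minus strand of chromosome 2 from 113873018 to 113879284. It had 2.11, 5.72 and 3.55 CPM in WT and 4.37, 9.02 and 8.44 CPM in Scl-/- replicates 1 to 3. The groups overlapped, since WT replicate 2 was above Scl-/- replicate 1, while the Scl-/- library was higher in each pair. Its log2 fold change was 0.89 (SE 0.38, with a Benjamini-Hochberg adjusted p of 0.28 from limma without the block and 0.00479 with it). The call with the block was kept when any of the 3 pairs was left out (limma, Benjamini-Hochberg adjusted p between 0.00292 and 0.0389). With condition only, leaving out each library in turn gave log2 fold changes from 0.57 (without WT replicate 1) to 1.20 (without WT replicate 2), none of them called.

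Acta1 (ENSMUSG00000031972) lies on the minus strand of chromosome 8 from 126415669 to 126418651. It was near the low end of the table, with 1.25, 2.09 and 1.80 CPM in WT and 2.03, 3.82 and 3.24 CPM in Scl-/- replicates 1 to 3, or an estimated 50 to 158 reads per library. The groups overlapped, with Scl-/- replicate 1 just below WT replicate 2. Acta1 had a log2 fold change of 0.66 (SE 0.26, with a Benjamini-Hochberg adjusted p of 0.251 from limma without the block and 0.0178 with it). Without pair 2 or pair 3 the log2 fold change with the block was 0.62 and 0.63, and the call was lost (limma, Benjamini-Hochberg adjusted p = 0.129 and 0.085).

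Acta2 (ENSMUSG00000035783), the smooth muscle actin, lies on the minus strand of chromosome 19 from 34315580 to 34329826. It had 2.18, 2.46 and 3.04 CPM in WT and 2.56, 2.97 and 2.49 CPM in Scl-/- replicates 1 to 3. The Scl-/- values lay inside the range of the WT values, and the Scl-/- library was higher in 2 of the 3 pairs. On the log2 scale the difference was 0.06 (SE 0.19, with a Benjamini-Hochberg adjusted p of 0.939 from limma), and its sign depended on the libraries used. The coding sequences of the muscle actins are alike: Acta1 and Actc1 have the same base at 86.2% of 1134 positions, Acta1 and Acta2 at 85.4%, and Acta2 and Actc1 at 82.5%. The longest identical run is 29 bases between Acta1 and either of the others, and 77 bases between Acta1 and the cytoplasmic actin Actb. Some reads could therefore fit more than a single actin gene, and their share was not measured. The authors filtered reads by mapping quality, and how far that removed such reads was not tested. Actb had 1740 to 1999 CPM per library against 1.25 to 3.82 CPM for Acta1.

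Myl4 (ENSMUSG00000061086), an essential light chain of myosin in atrial and embryonic muscle, lies on the plus strand of chromosome 11 from 104411977 to 104457067. It had 3.96, 5.25 and 4.93 CPM in WT and 6.52, 5.37 and 6.37 CPM in Scl-/- replicates 1 to 3. The groups did not overlap, but the gap between WT replicate 2 and Scl-/- replicate 2 was narrow. Myl4 differed by a log2 fold change of 0.34 (SE 0.17, with a Benjamini-Hochberg adjusted p of 0.37 from limma) and was about that of the chromosome, whose median is given with Myl7. With the chromosome medians removed and the block, the value for Myl4 was 0.03 (adjusted p by limma and Benjamini-Hochberg 0.919). The gene after it, the integrin Itgb3, had a log2 fold change of -2.08, and the gene before it, Cdc27, of 0.26.

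The tropomyosins Tpm1 and Tpm2 run along actin filaments, and both genes also give forms used outside muscle, which a value per gene does not separate. Tpm1 (ENSMUSG00000032366), on the minus strand of chromosome 9 from 66870397 to 66897213, had 239, 258 and 230.1 CPM in WT and 435, 254 and 233 CPM in Scl-/- replicates 1 to 3. Scl-/- replicate 1 stood alone above the other libraries, which lay close together. Over all libraries the log2 fold change was 0.29 (SE 0.22, with a Benjamini-Hochberg adjusted p of 0.601 from limma), and without Scl-/- replicate 1 it was 0.007. Tpm2 (ENSMUSG00000028464), on the minus strand of chromosome 4 from 43527583 to 43536637, had 20.1, 29.0 and 27.7 CPM in WT and 31.1, 32.9 and 32.1 CPM in Scl-/- replicates 1 to 3. All Scl-/- libraries were above all WT libraries, with WT replicate 1 the lowest. Its log2 fold change was 0.34 (SE 0.16, with a Benjamini-Hochberg adjusted p of 0.322 from limma without the block and 0.0521 with it), and without WT replicate 1 it was 0.18.

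Tagln (ENSMUSG00000032085) encodes transgelin (SM22), an actin-bundling protein and an early marker of smooth muscle, and lies on the minus strand of chromosome 9 from 45737711 to 45744141. It had 17.4, 27.2 and 17.1 CPM in WT and 51.9, 31.7 and 28.6 CPM in Scl-/- replicates 1 to 3. The groups did not overlap, and as for Tpm1 the highest value was that of Scl-/- replicate 1. Tagln had a log2 fold change of 0.83 (SE 0.27, with a Benjamini-Hochberg adjusted p of 0.168 from limma without the block and 0.0247 with it). Without Scl-/- replicate 1 it was 0.57 with condition only, and without pair 1 it was 0.47 with the block, just under the fold-change threshold (limma, Benjamini-Hochberg adjusted p = 0.0166). Without pair 3 the log2 fold change with the block was 0.88, no smaller than in the full fit, but the call was lost (limma, Benjamini-Hochberg adjusted p = 0.0948).

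**Figure D2:**
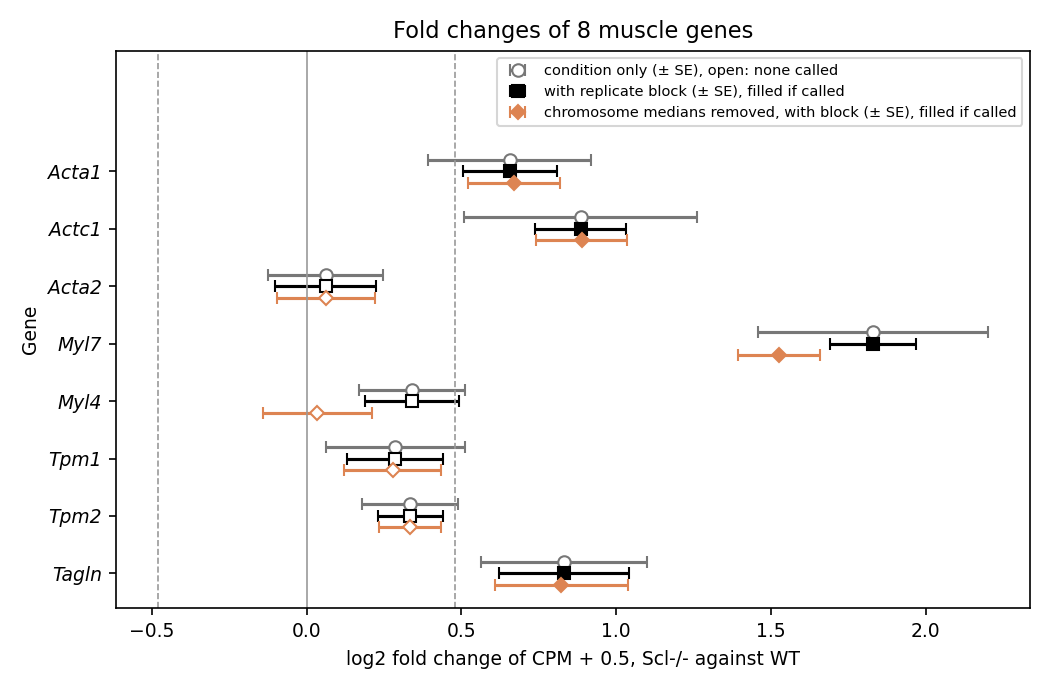
Log2 fold changes of 8 muscle genes with standard errors, from limma with condition only (grey), with the replicate block (black) and with chromosome medians removed and the block (orange), where filled symbols are calls and dashed lines mark 0.48 in either direction. Myl7, Actc1, Acta1 and Tagln are called in both fits with the block, and Myl4 moves from 0.34 to 0.03 when chromosome medians are removed.

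The row with the symbol Tnnc1, the troponin C of cardiac and slow muscle, could not be read as troponin C. It belongs to the gene model ENSMUSG00000091898, on the plus strand of chromosome 14 from 31983021 to 32024915, and had 601, 566 and 699 CPM in WT and 580.0, 522 and 612 CPM in Scl-/- replicates 1 to 3. That model spans most of Nisch, a gene on the opposite strand from 31984114 to 32030132, whose row had 593, 559 and 703 CPM in WT and 574, 515 and 615 CPM in Scl-/- replicates 1 to 3. In each library the Tnnc1 row was between 99.4% and 101% of the Nisch row, although their annotated exons share 0 bases. A further model of Tnnc1, ENSMUSG00000021909, which has no symbol in the table, runs from 32021498 to 32024915 and shares 1041 of the 1051 exon bases of the first model. Its row had 1.51, 1.49 and 1.51 CPM in WT and 2.97, 1.14 and 1.04 CPM in Scl-/- replicates 1 to 3, with Scl-/- replicate 1 again the highest. The log2 fold changes were -0.12 for the Tnnc1 row, -0.12 for Nisch and 0.04 for the further model (limma, Benjamini-Hochberg adjusted p = 0.693, 0.712 and 0.978).

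Actc1 gave a similar case. It lies inside RP23-230H3.2, a transcript on the opposite strand with which it shares 0 exon bases, and that row had 2.18, 5.98 and 3.50 CPM in WT and 4.55, 9.33 and 8.44 CPM in Scl-/- replicates 1 to 3. Library by library, Actc1 was between 95.6% and 101% of it. Acta1 lies inside Gm20388, a model that spans 64 other rows of the table, and Gm20388 had 7151 CPM in WT replicate 1, where the rows inside it summed to 6654 CPM. The table therefore holds rows whose values follow other genes in their span without a shared exon. How reads were assigned to genes and whether strand was used are not given in the sources used here, so the Actc1 and RP23-230H3.2 rows cannot be told apart. Tagln shares 65 exon bases at its end with Pcsk7 on the opposite strand, whose log2 fold change was 0.28.

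**Figure D3:**
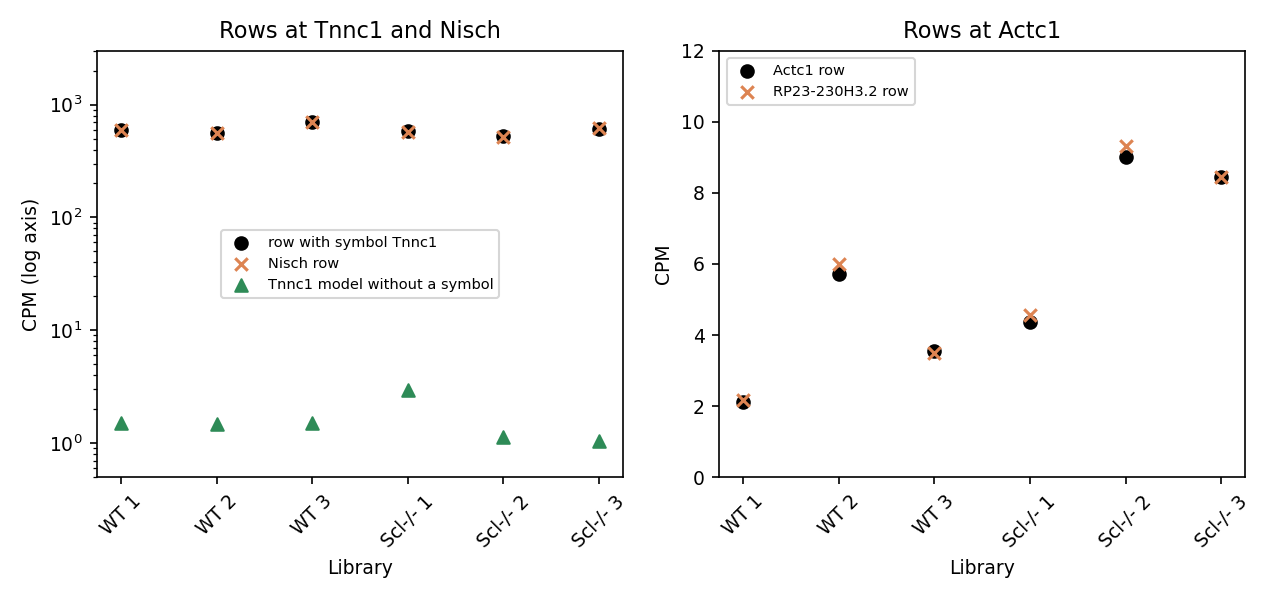
CPM in each library (x axis) of the rows at Tnnc1 and Nisch on a log axis (left) and of the rows at Actc1 on a linear axis (right). The Tnnc1 row lies on the Nisch row at 515 to 703 CPM while the model without a symbol lies at 1.04 to 2.97 CPM, and the RP23-230H3.2 row follows Actc1.

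Levels were compared between genes as mean CPM per kb of annotated exon, leaving out the Tnnc1 row. This scale takes the reads to come from annotated exons, and how they were assigned is not given in the sources used here. The Tnnc1 and Actc1 rows above followed rows with which they share 0 exon bases, so the scale may not hold. In WT cells Tpm1 was highest with 37.4 ± 2.19 CPM per kb (SD, n = 3), followed by Tagln with 13.0 ± 3.62, Myl7 with 8.99 ± 4.21 and Tpm2 with 8.80 ± 1.64 CPM per kb. The SD ranges of the last 3 overlap. Actc1 had 2.34 ± 1.12, Acta2 1.44 ± 0.244, Acta1 1.19 ± 0.293 and Myl4 1.02 ± 0.145 CPM per kb in WT. In Scl-/- cells Tpm1 had 47.4 ± 17.2 CPM per kb, Myl7 33.8 ± 12.3 and Tagln 23.6 ± 7.96, with SD ranges that overlap. The order of Tpm1 and Myl7 was not settled: Tpm1 was above Myl7 in Scl-/- replicate 1 (67.1 against 20.2 CPM per kb) and below it in replicates 2 (39.2 against 44.0) and 3 (35.9 against 37.3). Tpm2 had 11.0 ± 0.308, Actc1 4.50 ± 1.57, Acta1 2.10 ± 0.632, Acta2 1.50 ± 0.146 and Myl4 1.31 ± 0.135 CPM per kb.

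Other contractile, cytoskeletal and regulator genes gave calls in both directions with the block. Of 128 genes in 7 lists, 68 were tested; with condition only limma called 0 of them while 19 had an unadjusted p under 0.05 (17.7% of all tested genes did), and with the replicate block it called 11 as higher and 8 as lower in Scl-/- cells, where it called 12.6% of all tested genes and 6.04% as higher. These shares over all genes apply to the count of each list that follows. The median log2 fold change of the 68 was -0.03. With chromosome medians removed and the block, 9 were called as higher and 4 as lower, where 10.7% of all tested genes were called and 4.78% as higher. None of the 8 skeletal myogenic regulators has a row.

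Among the other thin filament genes of striated muscle, 5 of 15 were tested, their median log2 fold change was -0.16, and the block fit called 1 as higher and 1 as lower. The cardiac troponin I gene Tnni3 had 2.11, 2.06 and 2.04 CPM in WT and 3.83, 2.76 and 4.01 CPM in Scl-/- replicates 1 to 3, with a log2 fold change of 0.64 (adjusted p by limma and Benjamini-Hochberg 0.144 without and 0.025 with the block). The slow skeletal troponin I gene Tnni1 went the other way, from 2.76, 2.33 and 3.89 CPM to 1.97, 0.774 and 1.09 CPM, with a log2 fold change of -1.01 (adjusted p by limma and Benjamini-Hochberg 0.139 without and 0.0143 with the block). Neither gene's groups overlapped. Tnni1 lies on chromosome 1, where the median log2 fold change was -0.29, and with chromosome medians removed its log2 fold change was -0.72 and its call was lost (limma with the block, Benjamini-Hochberg adjusted p = 0.0878). The most abundant gene of the list, the capping protein gene Tmod1, had a log2 fold change of -0.06.

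Of the thick filament genes, 2 of 19 were tested, and Mybph, a myosin-binding protein gene also on chromosome 1, was called as lower with the block, with a log2 fold change of -1.14 (adjusted p by limma and Benjamini-Hochberg 0.115 without and 0.0047 with the block). Its call was kept with chromosome medians removed, at -0.86 (limma with the block, Benjamini-Hochberg adjusted p = 0.03). Myh7b, a slow myosin heavy chain gene, had a log2 fold change of 0.48 and was not called. Of the titin, Z-disc and M-line genes 7 of 24 were tested, and 2 were called as higher and 2 as lower with the block. Flnc, the muscle filamin, had 363, 305 and 413 CPM in WT and 191, 162 and 251 CPM in Scl-/- replicates 1 to 3, and was lower in every Scl-/- library than in any WT library. Its log2 fold change was -0.85 (adjusted p by limma and Benjamini-Hochberg 0.0631 without and 1.5e-04 with the block), while Des, the intermediate filament protein of muscle, had -0.65 (adjusted p by limma and Benjamini-Hochberg 0.381 without and 0.00524 with the block). The Z-disc genes Pdlim5 and Actn3 were called as higher with the block, with log2 fold changes of 0.58 and 0.49, and Actn2, the lowest of the list by mean CPM over all libraries though above Actn3 in WT, had 0.30. Des lies on chromosome 1 and was not called with chromosome medians removed, at -0.36.

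Among the other smooth muscle genes, 12 of 18 were tested, their median log2 fold change was 0.20, and 5 were called as higher and 2 as lower with the block, which called 6.04% of all tested genes as higher and 12.6% in either direction. Cnn1, the smooth muscle calponin, had 4.26, 9.28 and 6.80 CPM in WT and 13.5, 16.9 and 15.4 CPM in Scl-/- replicates 1 to 3. All Scl-/- libraries were above all WT libraries, here without Scl-/- replicate 1 standing out. The log2 fold change of Cnn1 was 1.17 (SE 0.26, with a Benjamini-Hochberg adjusted p of 0.072 from limma without the block and 0.00154 with it). Myl9, the regulatory light chain of smooth muscle myosin, had a log2 fold change of 0.81 and the integrin gene Itga8 of 0.78 (limma with the block, Benjamini-Hochberg adjusted p = 0.00236 and 0.00861). The adaptor gene Csrp1 was lower, with a log2 fold change of -0.71 (limma with the block, Benjamini-Hochberg adjusted p = 0.00444). Csrp1 lies on chromosome 1 and was not called with chromosome medians removed, at -0.42. Cald1, the most abundant gene of the list, had a log2 fold change of -0.07, and the least abundant, Kcnmb1 on chromosome 11, was called with the block at 0.66 but not with chromosome medians removed, at 0.36.

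Of the general cytoskeleton, 27 of 28 cytoplasmic actin, tropomyosin and non-muscle myosin genes were tested, and their median log2 fold change was 0.006. The block fit called 1 as higher and 1 as lower, where it called 12.6% of all tested genes, and the unadjusted p of that fit was under 0.05 for 10 of the 27 and for 36.9% of all tested genes. Actb, the most abundant, had 1740, 1904 and 1893 CPM in WT and 1803, 1851 and 1999 CPM in Scl-/- replicates 1 to 3. Its groups overlapped. The least abundant, the myosin heavy chain gene Myh14, had a log2 fold change of 0.13. Cnn2 had 98.7, 139 and 105 CPM in WT and 198, 158 and 136 CPM in Scl-/- replicates 1 to 3, and was called as higher with the block, with a log2 fold change of 0.52. Its groups overlapped, and Scl-/- replicate 1 was again the highest library. Tagln2, on chromosome 1, was called as lower with the block, with a log2 fold change of -0.54, which was -0.25 and not called with chromosome medians removed.

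Regulators of these genes were measured beside them. Serum response factor is a DNA-binding protein of the CArG box, and myocardin is its partner in heart and smooth muscle. Srf had 114, 146 and 141 CPM in WT and 111, 142 and 145 CPM in Scl-/- replicates 1 to 3, with groups that overlapped and a log2 fold change of -0.02. Myocd had 1.51, 1.49 and 1.04 CPM in WT and 1.72, 4.21 and 2.43 CPM in Scl-/- replicates 1 to 3, and its groups did not overlap. Its log2 fold change was 0.77 (adjusted p by limma and Benjamini-Hochberg 0.236 without and 0.0409 with the block), but it lies on chromosome 11, and with chromosome medians removed it was 0.47 (limma with the block, Benjamini-Hochberg adjusted p = 0.151). Of the 15 regulators tested of 16 listed, the block fit also called Tead4 as higher and Foxo4 as lower, with log2 fold changes of 0.51 and -0.53, and the median of the list was -0.09. Tead2, the most abundant, had a log2 fold change of 0.05 and Hopx, the lowest by mean CPM over all libraries though above Myocd in WT, of 0.23. Tnni3, Myl9, Myocd and Pdlim5 are, like Myl7, genes that the study drew from these libraries.

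**Figure D4:**
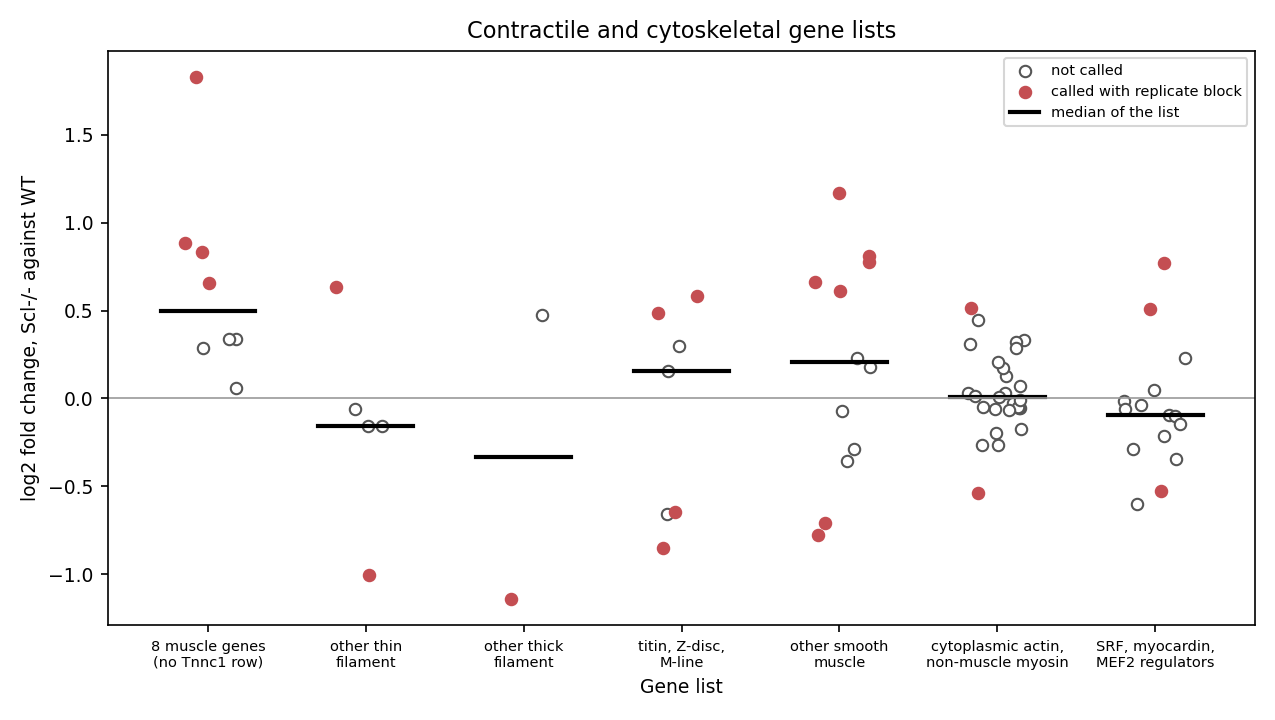
Log2 fold change of each tested gene (points) in the 8 muscle genes and in 6 lists of other contractile, cytoskeletal and regulator genes, with black bars for the list medians and red points for genes called with the replicate block. The 8 muscle genes all lie above 0 and the other lists hold points on both sides of it.

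Marker lists of cell types differed in direction. The median log2 fold change was 0.88 for FLK1+ mesoderm, 0.59 for pluripotent and epiblast cells and 0.25 for fibroblast and mural cells. It was -0.20 for ectoderm, -0.78 for endoderm and -2.84 for blood and endothelium. The part of these cell types in the results was not tested. Of 9 genes of FLK1+ mesoderm 9 had a row, and limma called 2 as higher in Scl-/- cells with condition only and 7 with the block, where 0.793% and 6.04% of all tested genes were called as higher. Hand1 of this list had a log2 fold change of -0.45 and was not called, but with chromosome medians removed and the block it was called as lower, at -0.76 (adjusted p by limma and Benjamini-Hochberg 0.0297). Their summed level was 2016, 2366 and 2269 CPM in WT and 2470, 3076 and 3197 CPM in Scl-/- replicates 1 to 3, with Kdr the most abundant. Mesp1, a factor of early cardiac mesoderm, had 30.5, 70.5 and 52.1 CPM in WT and 67.8, 178 and 176 CPM in Scl-/- replicates 1 to 3, and Pdgfra, the receptor of paraxial and cardiac precursors, had 46.6, 120.5 and 63.4 CPM and 75.7, 191 and 156 CPM. T, the brachyury gene, had a log2 fold change of 0.74. In Mesp1 and Pdgfra, as in Myl7, Actc1 and Acta1, replicate 1 was the lowest library of its group and replicate 2 the highest. The pluripotent and epiblast list, with 8 of 8 genes in the table, had a summed level of 169, 486 and 238 CPM in WT and 294, 876 and 681 CPM in Scl-/- replicates 1 to 3, with Tdgf1 the most abundant and the same order of replicates. With condition only limma called 0 of this list, where it called 2.36% of all tested genes. With the block, which called 6.04% of all tested genes as higher and 923 of 13991 as lower, it called 5 as higher and 1 as lower. Pou5f1 and Nanog were among the higher, with log2 fold changes of 0.56 and 0.82, while Sox2 had -0.04 and Zfp42 -0.14. Esrrb was the gene called as lower, at -0.91 (adjusted p by limma and Benjamini-Hochberg 0.126 without and 0.0166 with the block), and its groups did not overlap.

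The blood and endothelium list, with 9 of 9 genes in the table, summed to 762, 430.0 and 769 CPM in WT and 85.1, 40.5 and 74.7 CPM in Scl-/- replicates 1 to 3, and limma called 7 as lower with condition only and all 9 with the block. The blood and endothelium list includes the targeted gene Tal1, whose fall follows from the genotype and counts in its sums and calls. Tal1 was the most abundant of that list in WT, with 303, 182 and 306 CPM in replicates 1 to 3. Cdh5 and Pecam1 had log2 fold changes of -3.13 and -1.23. For fibroblast and mural cells 6 of 12 genes have a row, with a summed level of 295, 295 and 287 CPM in WT and 405, 276 and 343 CPM in Scl-/- replicates 1 to 3, highest in Scl-/- replicate 1 as for Tagln and Tpm1. Col1a1 had 107.9 CPM in that library and between 37.2 and 69.7 CPM in the other 5. Col1a2, with a log2 fold change of 0.12, went the other way, at 21.4 CPM there and 22.1 to 32.5 CPM in the other 5. Fbln1, the most abundant, had 131 CPM there and 105 to 124 CPM in the other 5, and Col3a1 has no row. Pdgfrb, at a log2 fold change of 0.50, was called as higher with the block. Endoderm markers with a row were 4 of 9 and summed to 308 to 361.5 CPM, with Gata4 the most abundant and no row for Foxa2 or Afp. The block fit called Gata4 as higher, at a log2 fold change of 0.55, and Sox17 and Sox7 as lower, at -2.10 and -2.37. The paper places Gata4 with cardiac and Sox17 with endothelial development, so the sum does not measure endoderm alone. Ectoderm markers with a row were 5 of 7, with Krt8 the most abundant and no row for Sox1. They summed to 533, 554 and 654 CPM in WT and 697, 409 and 554 CPM in Scl-/- replicates 1 to 3. This sum, too, was highest in Scl-/- replicate 1. Krt8 alone of the 5 was highest there, with 437 CPM against 424 CPM in WT replicate 3. Pax6 was highest in Scl-/- replicate 2 and Tubb3 in WT replicate 3. Pax6 and Tubb3 had log2 fold changes of 0.05 and -0.91, and the block fit called 1 as higher and 1 as lower. Mesp1, T, Tal1, Cdh5, Gata4 and Sox17 are likewise among the genes that the study drew from these libraries.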

How the data were processed

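The deposited CPM values were made by the authors, who mapped reads to mm9 with TopHat2 2.0.8b, dropped duplicate pairs, filtered by mapping quality with SAMtools 0.1.19 and scaled libraries with the TMM method of edgeR. The counting tool and annotation are not given in the sources used here. Loss of duplicates can lower the values of abundant and short genes. Groups and replicate numbers come from the sample labels.

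The test was limma 3.58.1 under R 4.3.3 on log2(CPM + 0.5) with a trended prior (lmFit, eBayes), condition alone in the model, and Benjamini-Hochberg adjustment over all genes that reached 0.5 CPM in 3 or more of the 6 libraries (13991, with 14 left out). It was run on simulated data, after an error in the simulation that left its genes unchanged had been corrected, and the outcome is not given here. Every value was a whole multiple of 1 step per library within a tolerance of 0.1, but the table lists few low values, so no count model was run. Same-numbered libraries were taken as pairs because the labels give 3 independent differentiations and because deviations from group means correlated by 0.59, 0.76 and 0.75 within a number, against -0.62 to -0.10 between numbers. Deviations cancel out within a group, so positive values within a number bring negative ones between numbers. The negative values are therefore not separate evidence for the pairing. The alternatives changed the pseudocount (0.1 or 1), the filter (none, or a mean of 2 CPM), the scaling (median ratio), the prior (no trend) and the fold-change threshold (none), removed chromosome medians, added the replicate block, or left out each library or each pair after filtering.

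Positions and exon lengths are from the GENCODE annotation of mm9. The named genes are the 10 muscle genes, the called genes of each list (at most 5 by size of change) with its most and least abundant, the leading 3 and the most abundant marker of each cell type, flanking or overlapping genes, and Tal1. A gene that this rule would name is counted with its list but is not reported here. Mesp1, Hand1, Sox7, Zfp42 and Esrrb were named after their values were seen. Members and lists were chosen with earlier results of these data known. Other steps used Python 3.11.15, NumPy 2.4.6 and pandas 2.3.3, with figures by Matplotlib 3.10.9.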

Additional observations from a re-analysis of the deposited data

How the results depend on the processing

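The replicate block moved the number of genes called from 330 to 1768 and that of the 9 muscle genes from 0 to 4. That of the 68 other contractile, cytoskeletal and regulator genes moved from 0 to 19. With chromosome medians removed and the replicate block, 1495 genes, 4 muscle genes and 13 other genes were called. The replicate block without pair 1 called 2062, 3 and 17, without pair 2 it called 1122, 3 and 11, and without pair 3 it called 1210, 2 and 11. Leaving out each library in turn, the genes called ran from 44 (without WT replicate 1) to 384 (without Scl-/- replicate 1), the muscle genes from 0 to 1 and the other genes from 0 to 2. The cause of these moves was not tested. The share of calls that were higher in Scl-/- cells was 33.6% with condition only and 47.8% with the block.

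Of 171 values of muscle genes under the alternatives, 148 kept their direction and side of the threshold, 18 crossed it in the same direction and 5 reversed. Acta2 reversed to -0.0035 and -0.024 with the replicate block without pair 1 and without pair 2, and ran from -0.028 to 0.17 with each library left out. Tpm1 reversed to -0.0023 with the replicate block without pair 1. The causes were not tested. Pseudocount, filter, rescaling, prior and threshold were changed with condition only, where 0 of the 9 were called, and brought no call. They were not changed together with the block, so the 4 calls of that fit were not tested against them. Beyond those given, the block changed no other call among the 9. Acta1, Acta2, Actc1 and Myl4 rest on low counts, between 50 and 373 estimated reads per library. Myl7 had 134, 310 and 183 estimated reads in WT replicates 1 to 3. Smaller differences may not be seen at such counts, which was not tested.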
